A study of Mus musculus with 78 samples.

Results

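The ligated left common carotid artery (LCA) of atorvastatin-treated mice was compared between 48 h and 24 h after surgery, over all measured genes. The 9 arrays were those titled LCA, Ator and 48h (4 arrays) or 24h (5 arrays), out of 78 arrays in the series. Every mouse of both groups had partial ligation of the LCA and received atorvastatin by mouth at 10 mg/kg/day, begun 2 days before surgery. The right common carotid artery (RCA) of the same mouse was left unligated and served as its control. RNA enriched for endothelium was flushed from each artery with Qiazol, so a sample could hold RNA of other cells in the inner wall or the blood. The whole series held 39 mice in 16 groups of 4 or 5 arrays, with vehicle groups run alongside and times of 12 h, 24 h, 48 h and 2 weeks. Different mice were taken at each time, so the comparison was unpaired, and mice that carry the same number at 24 h and 48 h are not the same animal. RNA was extracted and profiled in 4 batches, but no label assigns an array to one, so batch and time cannot be told apart. The sources used here give neither strain, sex nor age of the mice.

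Partial ligation leaves a carotid artery with low and oscillating flow, which endothelial cells sense. Steady laminar flow sustains the transcription factors Klf2 and Klf4 and the nitric oxide synthase Nos3, and disturbed flow lowers them while adhesion molecules, growth factors and leukocyte recruitment increase. Statins block the rate-limiting step of cholesterol synthesis, to which cells answer through sterol-regulated genes, and in cultured endothelium they are known to raise Klf2 and Nos3. The comparison of 48 h with 24 h asks how the treated, ligated artery changes in the second day of disturbed flow.

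Endothelial identity was checked first. All 16 endothelial markers passed the filter on low values in the LCA, and the median of their changes was -0.31 on the log2 scale. Pecam1, the junctional adhesion molecule CD31, read 10.15, 11.46, 10.81 and 10.70 at 48 h (mice 6, 7, 8 and 9, the order used throughout) and 11.65, 11.64, 11.52, 11.65 and 11.21 at 24 h (mice 6 to 10). It was high on all 9 arrays and lower at 48 h (log2 difference -0.75 ± 0.24 SE, adjusted p = 0.0177), a call lost without 48 h mouse 6 (adjusted p = 0.124) or mouse 9 (0.0532). The angiopoietin receptor Tek (-0.77), von Willebrand factor Vwf (-0.70) and the transcription factor Erg (-0.53) fell too, while the VEGF receptor Kdr rose by 1.18. Thus 4 of the 16 markers fell and 1 rose, a share of calls near that of all genes tested (26.5%). Among the markers not called were Cldn5 (-1.21) and Egfl7 (-0.46), and also Cdh5 (0.03), Eng (0.03), Ecscr (0.12) and Emcn (0.19). The calls of Vwf and Kdr were lost without 48 h mouse 6 (adjusted p = 0.224 and 0.0983) or mouse 9 (0.0966 and 0.153), that of Vwf also without 24 h mouse 6 (0.05) or 9 (0.0537), and that of Tek without 48 h mouse 6 (0.0542). With 1 weight per group of arrays 1 fall and 0 rises were called, without 48 h mouse 6 also 1 fall, and without mouse 9 2 falls. The markers did not move together, and the cause of their changes was not tested. Fewer endothelial cells in a sample and less RNA per endothelial cell cannot be told apart in bulk RNA. The 48 h arrays were unlike each other: their median within-group SD was 0.437, the highest of the 8 LCA groups, against 0.293 at 24 h. Over the 3002 genes described next, 48 h mouse 7 lay within the range of the 24 h arrays for 59.6% of genes, whereas mice 6, 8 and 9 did so for 5.90%, 12.2% and 5.26%. RNA integrity was gauged by the log2 ratio of 3 prime over 5 prime signal of the Gapdh controls, which was 3.97 ± 0.24 (SD, n = 4) at 48 h and 4.56 ± 0.29 (SD, n = 5) at 24 h (difference -0.59, exact permutation test, two-sided p = 0.0317, smallest possible 0.0159), while that for b-actin differed by 0.16 (exact permutation test, two-sided p = 0.317). With the Gapdh ratio as a covariate 2964 genes were called, against 3002 without it, but they were not all the same genes. Of 138 called genes named in this report 10 lost the call, and 5 uncalled ones gained it. Interferon falls went from 2 to 0 and glycolysis rises from 7 to 4. Endothelial falls went from 4 to 7 and immediate early rises from 6 to 9.

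Between 24 h and 48 h in the treated ligated artery, 14 of 19 tested ribosome biogenesis genes and 15 of 32 cell cycle genes rose. So did 8 of 10 tested neutrophil genes, or 7 of 12 with no filter on low values. In the other direction, 10 of 20 growth arrest and stress genes, 7 of 14 circadian clock genes and 7 of 17 laminar flow-associated genes fell. Of 11344 genes tested, 3002 (26.5%) differed at an adjusted p under 0.05 and are called here (limma, Benjamini-Hochberg over all genes, two-sided). Of these, 1321 (11.6%) were higher at 48 h and 1681 (14.8%) lower. The median difference over all genes was -0.02, 701 called genes were higher by at least 1 log2 unit and 614 lower by as much, and 134 and 57 passed 2 log2 units. The 4 arrays at 48 h lay entirely above the 5 at 24 h for 388 genes (3.42%) and entirely below for 661 (5.83%), and 330 (2.91%) and 582 (5.13%) were both called and free of overlap. At an unadjusted p under 0.05 there were 4362 genes (38.5%). Since the spread was estimated from all 39 LCA arrays, the count depends on that choice: the 9 arrays alone gave 6 calls, and 1 weight per group, which gave the variable 48 h group a weight of 0.43, gave 1422, all among the 3002. Leaving out 48 h mouse 6 gave 1774 calls, without mouse 9 there were 1718, without mouse 8 2533 and without mouse 7 4198. 1213 genes (40.4% of the calls) were called in every fit that left out 1 of the 9 mice, 462 of them higher and 751 lower.

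**Figure D1:**
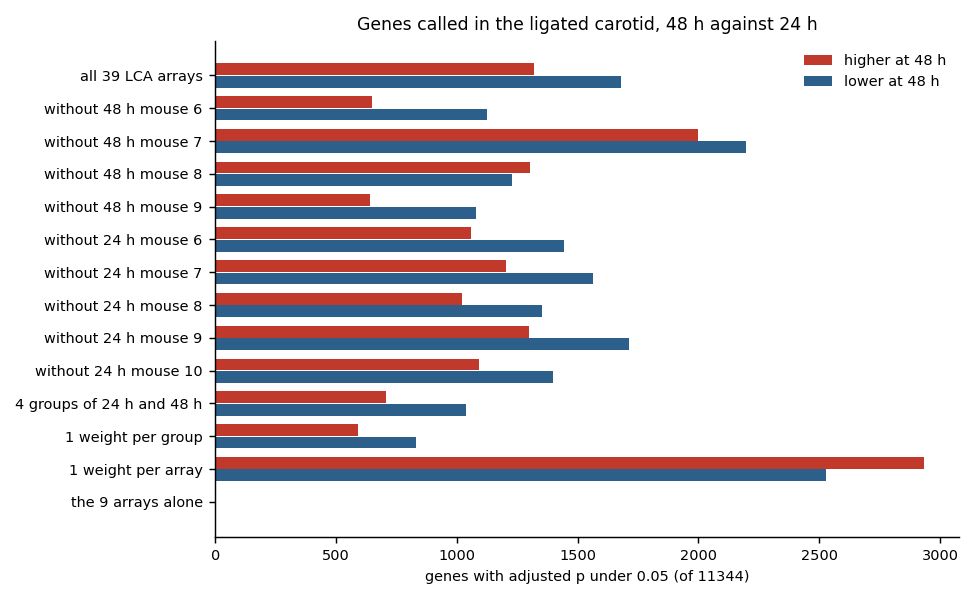
Number of genes called higher (red) and lower (blue) at 48 h than at 24 h in the atorvastatin-treated LCA, out of 11344 tested, for the fit on all 39 LCA arrays, with each of the 9 mice left out, and under other groupings or weights. The total runs from 1718 without 48 h mouse 9 to 4198 without 48 h mouse 7, and is 6 from the 9 arrays alone.

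The 12 largest rises among called genes with no overlap between the groups included secreted inflammatory and growth signals. Il1b, the cytokine interleukin-1 beta, read 10.74, 6.69, 8.14 and 9.52 at 48 h and 3.96, 3.84, 4.42, 6.26 and 4.20 at 24 h. Every 48 h array lay above every 24 h array, the lowest being mouse 7, and the difference was 4.24 ± 0.88 (SE; adjusted p = 0.00113). Hbegf, the heparin-binding EGF-like growth factor, read 9.83, 7.31, 11.81 and 10.94 at 48 h and 6.78, 6.63, 4.92, 5.37 and 6.30 at 24 h. Mouse 7 stood only just above the 24 h arrays and mouse 8 highest, and the difference was 3.98 ± 0.74 (adjusted p = 0.000545). Plau, the protease urokinase, rose by 3.05 ± 0.56 (adjusted p = 0.000506), from 4.66 to 7.24 at 24 h to 7.57 to 10.00 at 48 h. Il1rn, which encodes the antagonist of the interleukin-1 receptor, rose by 2.98. Odc1, the rate-limiting enzyme of polyamine synthesis, rose by 2.74, with 9.62, 7.47, 10.10 and 9.71 at 48 h. Olr1, the endothelial receptor for oxidised LDL, read 5.53, 2.95, 10.52 and 4.88 at 48 h and 2.64 to 2.75 at 24 h, so its difference of 3.28 rested largely on mouse 8, and the call was lost without it (adjusted p = 0.0712). Kit, the stem cell factor receptor, split differently, with 7.62 and 8.27 in mice 6 and 9 and 3.64 and 3.06 in mice 7 and 8 (difference 3.02), and its call was lost without mouse 6 (adjusted p = 0.0538) or mouse 9 (0.0673). The others of the 12 largest were the myeloid kinase Fgr (3.01), the leukocyte receptors Cd244a (3.0) and Clec7a (2.82), the leukocyte adaptor Cytip (2.97) and Cdr2 (2.86).

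The 12 largest falls by the same rule included secreted, transport and metabolic genes. Vwc2, a secreted protein that binds BMP ligands, read 2.52, 4.04, 4.73 and 2.28 at 48 h and 6.26, 6.75, 6.66, 7.12 and 7.57 at 24 h. The groups were well apart, with mice 6 and 9 lowest, and the difference was -3.48 ± 0.40 (adjusted p = 2.55e-06). Sult1a1, a phenol sulfotransferase, read 4.33, 8.06, 6.39 and 3.79 at 48 h and 8.65 to 9.62 at 24 h (difference -3.37 ± 0.55, adjusted p = 0.000242). Mice 6 and 9 were lowest and mouse 7 nearest the 24 h arrays, and mouse 7 was the highest 48 h array for 9 of these 12 genes. Fabp4, a fatty acid-binding protein of fat and capillary endothelium, instead read evenly low at 48 h, 7.31, 8.04, 8.15 and 7.43, against 9.50 to 11.76 at 24 h (difference -2.87 ± 0.58, adjusted p = 0.000963). The fat gene Adipoq was lower too but not called (-1.95, adjusted p = 0.16). Whether RNA of fat on the 24 h arrays had a part in the Fabp4 difference was not tested. The organic anion transporter Slco2b1 fell by 3.16 on the log2 scale, the flavin monooxygenase Fmo5 by 3.04, the small GTPase gene Rab40b by 2.67, the histone gene H2bc21 by 2.34, Crebrf by 2.29 and the acetyl-CoA carboxylase Acacb by 2.23. Fam107a (-3.18), Clic5 (-2.69) and the copper-carrying ferroxidase Cp (-2.27) were called too, but not without 48 h mouse 9 (adjusted p = 0.0527, 0.0575 and 0.0564), and Clic5 not without mouse 6 either (0.0856).

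**Figure D2:**
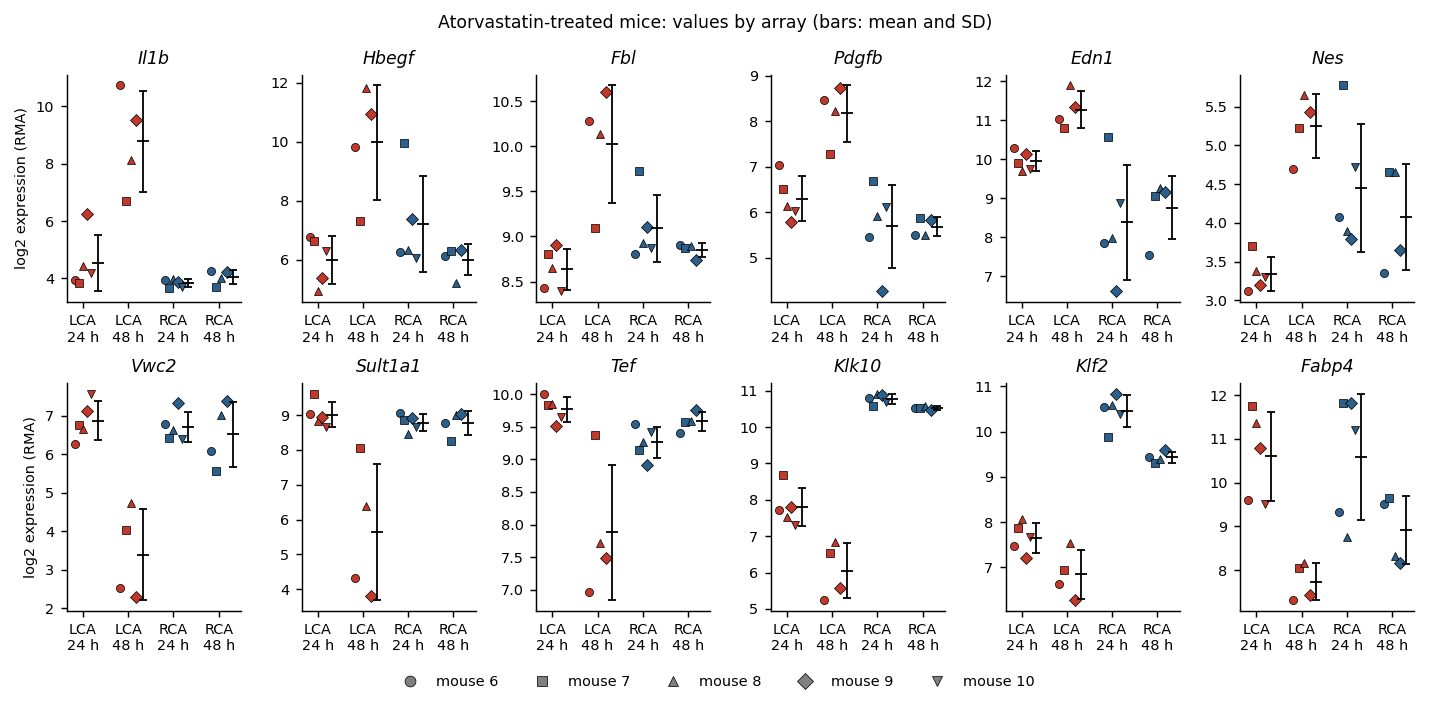
RMA log2 expression of 12 genes on each array of the atorvastatin-treated mice, LCA in red and RCA in blue, with the marker shape giving the mouse number and the black bar the mean and SD (n = 5 at 24 h, n = 4 at 48 h; same-numbered mice at the 2 times are different animals). In the LCA all 48 h values lie above all 24 h values for the first 6 genes and below them for Vwc2, Sult1a1, Tef, Klk10 and Fabp4, while for Klf2 the groups overlap.

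When the 9 arrays were fitted alone 6 genes were called, and they are named for that reason after their values were seen. Nes, the intermediate filament nestin, read 4.70, 5.22, 5.65 and 5.43 at 48 h and 3.12 to 3.70 at 24 h (difference 1.91 ± 0.22, adjusted p = 2.55e-06 over all LCA arrays). Stap1, a leukocyte signalling adaptor, rose by 1.36. Rsbn1l (-1.81), Vwa3a (-1.50), Zfp667 (-1.45) and Prrt4 (-1.29) fell. In all 6 the 4 arrays at 48 h lay clear of the 24 h arrays.

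Proliferation genes were high in mice 6 and 9 at 48 h. The cell cycle list held 32 tested genes, of which 15 rose and 0 fell, with a median difference of 1.16. Its mean level read 8.02, 5.51, 5.75 and 7.43 at 48 h and 5.23 to 5.90 at 24 h. Mice 6 and 9 exceeded every 24 h array for 31 and 27 of the 32 genes, and mice 7 and 8 for 3 and 8. Mki67, the marker of cycling cells, read 10.92, 6.99, 8.07 and 10.06 at 48 h and 5.88, 7.48, 6.10, 8.07 and 6.75 at 24 h (difference 2.15 ± 0.62, adjusted p = 0.0102). The mitotic kinase gene Cdk1 read 7.71, 3.55, 4.76 and 6.90 at 48 h and 3.31 to 4.25 at 24 h (difference 1.92). The replication helicase subunit Mcm5 (2.05), the ribonucleotide reductase subunit Rrm2 (1.95) and the chromosomal passenger protein Cdca8 (1.94) were also highest in mice 6 and 9, and in each of these 5 genes the groups overlapped. All 5 lost their call without mouse 6 and without mouse 9, Rrm2 also without 4 of the 24 h mice, Cdca8 without 3 and Mcm5 without 24 h mouse 8 (adjusted p = 0.0537). Leaving out mouse 6 left 2 calls in the list, and leaving out mouse 9 also left 2, while there were 26 without mouse 7 and 9 without 24 h mouse 8. With 1 weight per group 6 were called, and with the 24 h and 48 h groups of both treatments alone 2. In the unligated RCA of the same mice 0 of the 32 were called (median 0.27), with Mki67 at 1.37 (adjusted p = 0.549). When the change was taken relative to that RCA, 6 members were higher and 0 lower (median 0.76). Mki67 (0.78, adjusted p = 0.618), Cdca8 (1.03, 0.502), Mcm5 (1.91, 0.116) and Cdk1 (1.51, 0.108) were not called relative to the RCA.

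The sequences upstream of the 4 largest rises in the list with a RefSeq promoter entry are shown because cell cycle genes are known to share promoter elements bound by E2F, NF-Y and the DREAM complex. The 250 bases before each start (GRCm38.p6, written 5′ to 3′ on the gene's strand) have in capitals every match, on either strand, to TTTCGCGC and TTTGGCGC (E2F type), TTTGAA (cell cycle homology region) and CCAAT (NF-Y). Mki67 lies on the minus strand at chr7:135716380-135716629, Mcm5 on the plus strand at chr8:75109259-75109508, Rrm2 on the plus strand at chr12:24708004-24708253 and Cdca8 on the minus strand at chr4:124936918-124937167.
Mki67: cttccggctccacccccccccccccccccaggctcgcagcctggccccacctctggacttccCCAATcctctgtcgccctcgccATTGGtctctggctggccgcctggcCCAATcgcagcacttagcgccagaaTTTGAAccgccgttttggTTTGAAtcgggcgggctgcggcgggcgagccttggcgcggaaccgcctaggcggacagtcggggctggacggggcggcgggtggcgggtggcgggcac
Mcm5: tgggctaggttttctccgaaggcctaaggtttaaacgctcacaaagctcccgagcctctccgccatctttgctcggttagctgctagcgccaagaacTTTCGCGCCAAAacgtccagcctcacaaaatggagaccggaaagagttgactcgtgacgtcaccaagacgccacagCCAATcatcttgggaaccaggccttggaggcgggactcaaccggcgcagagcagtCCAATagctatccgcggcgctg
Rrm2: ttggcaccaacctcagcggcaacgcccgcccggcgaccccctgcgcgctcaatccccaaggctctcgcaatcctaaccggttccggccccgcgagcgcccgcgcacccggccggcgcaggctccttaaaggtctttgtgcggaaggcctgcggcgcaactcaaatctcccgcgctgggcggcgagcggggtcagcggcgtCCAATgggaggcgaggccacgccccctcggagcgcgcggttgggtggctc
Cdca8: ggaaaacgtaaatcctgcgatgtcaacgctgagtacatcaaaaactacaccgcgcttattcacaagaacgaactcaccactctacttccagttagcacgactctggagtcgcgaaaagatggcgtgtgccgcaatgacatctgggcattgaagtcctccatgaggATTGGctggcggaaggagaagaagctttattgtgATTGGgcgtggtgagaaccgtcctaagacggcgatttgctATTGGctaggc
In these stretches CCAAT matched 3 times upstream of Mki67, 2 times upstream of Mcm5, 1 time upstream of Rrm2 and 3 times upstream of Cdca8. Mki67 also held 2 TTTGAA matches, and in Mcm5 a TTTCGCGC match and a TTTGGCGC match on the other strand overlapped. In windows from 250 bases before to 50 after the start (27025 genes), CCAAT was found in 37.9% of all promoters, in 19 of the 25 tested cell cycle genes with an entry and in 10 of the 11 called ones. TTTGAA was in 18.1% of all promoters, 10 of the 25 and 3 of the 11, TTTCGCGC in 0.318%, 4 and 3, and TTTGGCGC in 0.537%, 3 and 3. A match is a description of the letters and not of binding.

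Genes of ribosome assembly were high in mice 6, 8 and 9 at 48 h. These exceeded every 24 h array for 18, 15 and 18 of the 19 genes. Mouse 7 did so for 2, and its list mean of 7.65 lay within the 24 h range of 7.40 to 7.81. Of 19 tested ribosome biogenesis genes 14 rose and 0 fell (median 0.92), 12 of them also with 1 weight per group, and 9 without 48 h mouse 9. Fbl, the nucleolar methyltransferase fibrillarin, read 10.28, 9.09, 10.14 and 10.60 at 48 h and 8.43, 8.81, 8.65, 8.91 and 8.39 at 24 h. All 48 h arrays lay above all 24 h arrays, as in 2 of the 19 genes, with mouse 7 the lowest (difference 1.39 ± 0.23, adjusted p = 0.000271). The box C/D snoRNP protein Nop58 (1.90), Rrp12 (2.07), Nolc1 (1.51) and Myc, the transcription factor that drives this programme (2.22 ± 0.57, adjusted p = 0.00501), rose with mouse 7 among the 24 h values. In Myc mouse 8 was highest, 9.38, 6.91, 11.24 and 9.87 at 48 h against 6.44 to 8.06 at 24 h.

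Immediate early genes, which respond within minutes to stimulation, were highest in that same mouse. Of 16 tested, 6 rose and 0 fell (median 1.13), and the list mean read 8.01, 6.96, 9.93 and 7.92 at 48 h and 6.76 to 7.38 at 24 h. Mouse 8 exceeded every 24 h array for all 16 genes. Fosl1, the AP-1 subunit Fra-1, read 6.48, 5.17, 9.61 and 7.64 at 48 h and 4.01 to 5.14 at 24 h (difference 2.65 ± 0.51, adjusted p = 0.000614), and Ier2 rose by 1.44, both without overlap. The calls of Egr2 (2.16) and Nr4a1 (1.83) were lost without mouse 8 (adjusted p = 0.244 and 0.336) and on leaving out several others. The count of 6 became 3 without 48 h mouse 6 or 8 or 24 h mouse 6, 8 or 10, and 11 without 48 h mouse 7.

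Leukocyte genes were higher at 48 h, neutrophil genes most. Of 10 tested neutrophil genes 8 rose (median 2.85), of 6 monocyte genes 4 (median 1.67) and of 14 macrophage genes 5 (median 1.15), and none fell. A gene could pass the filter on low values through high 48 h arrays alone, so the filter could shape these counts. With no filter 7 of the 12 neutrophil genes with a probe set rose, with 4 monocyte and 4 macrophage genes. S100a9, a calcium-binding protein abundant in neutrophils, read 11.46, 7.99, 9.68 and 10.48 at 48 h and 5.05, 5.86, 5.93, 8.34 and 5.15 at 24 h. Only 24 h mouse 9 reached into the 48 h range, and the difference was 3.84 ± 1.18 (adjusted p = 0.0161), lost without 48 h mouse 6 (0.0736) or mouse 9 (0.0532). The interleukin-1 decoy receptor Il1r2 (3.36) and the histidine decarboxylase Hdc (3.04) rose as well, 24 h mice 9 and 7 respectively reaching into the 48 h range, with calls lost without 48 h mouse 6 (adjusted p = 0.0579 and 0.0516). Lyz2, lysozyme of myeloid cells, read 10.80, 10.09, 10.80 and 10.92 at 48 h and 7.88, 9.98, 8.14, 8.84 and 8.75 at 24 h without overlap (difference 1.94 ± 0.48, adjusted p = 0.00392), and the chemokine receptor Ccr2 of inflammatory monocytes rose by 2.73. The mean of the neutrophil list read 8.96, 4.97, 6.67 and 7.65 at 48 h and 3.93 to 5.48 at 24 h. Without 48 h mouse 6 there were 1 neutrophil, 1 monocyte and 2 macrophage calls, without mouse 9 there were 3, 2 and 2, and without mouse 8 there were 8, 2 and 2. Macrophage calls numbered 8 without 48 h mouse 7, 9 without 24 h mouse 7 and 3 without any other 24 h mouse. The neutrophil granule genes Ngp and Camp and, from the monocyte list, the integrin Itgam did not pass the filter, with highest 48 h values of 3.56, 3.43 and 3.71 against an array median of 4.66. No T cell gene of 6 was called, and all 5 B cell genes with a probe set stayed below the filter.

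Of the 17 tested laminar flow-associated genes, 7 fell at 48 h and 1 rose (median -0.51). Klk10, a secreted serine protease known to need laminar flow, read 5.24, 6.54, 6.83 and 5.58 at 48 h and 7.72, 8.69, 7.52, 7.79 and 7.31 at 24 h. The groups did not overlap and the difference was -1.76 ± 0.45 (adjusted p = 0.00486), a call that held with each mouse left out and reached 0.0573 with 1 weight per group. Klf4 read 7.81, 10.22, 9.78 and 7.78 at 48 h and 10.15 to 10.61 at 24 h (difference -1.49, adjusted p = 0.022), and its call was lost without mouse 6 (0.128) or mouse 9 (0.131). Klf2 read 6.62, 6.95, 7.53 and 6.27 at 48 h and 7.47, 7.86, 8.06, 7.21 and 7.67 at 24 h, overlapping through mouse 8 at 48 h (difference -0.81 ± 0.30, adjusted p = 0.0399), and lost its call without 48 h mouse 6 (0.118) or 9 (0.178) or 24 h mouse 7 (0.0751), 8 (0.1) or 10 (0.063). Nos3 was lower by -0.71 ± 0.21 (adjusted p = 0.013), with 6.50, 7.25, 6.58 and 7.10 at 48 h against 7.10 to 8.24 at 24 h, and lost its call without 24 h mouse 6 (0.0554) or 48 h mouse 6 (0.0717). The water channel Aqp1 (-1.72) and the quinone reductase Nqo1 (-0.89) fell without overlap, Aqp1 not being called without mouse 6 (0.083), and Gch1, which makes the Nos3 cofactor tetrahydrobiopterin, rose by 1.32. Without mouse 6 the list had 2 falls, and with 1 weight per group 1. When the change was taken relative to the unligated RCA of the same mice, 3 members were lower and 1 higher (median -0.26). Klk10 (-1.50 ± 0.45, adjusted p = 0.0145) and Tek (-0.86 ± 0.24, adjusted p = 0.00989) were among the 3, whereas Klf4 (-1.26, adjusted p = 0.0613), Aqp1 (-1.27, 0.0725), Nos3 (-0.49, 0.21), Nqo1 (-0.26, 0.56) and Klf2 (0.20, 0.668) were not called relative to the RCA.

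The mean of the Notch and arterial identity list read 8.36, 9.07, 7.77 and 8.51 at 48 h and 8.85 to 9.08 at 24 h, lowest in mouse 8. Of its 13 tested genes 5 fell and 0 rose (median -0.50), but none without overlap. Hey2, a Notch target, read 9.25, 10.86, 7.32 and 9.02 at 48 h and 10.55 to 11.05 at 24 h (difference -1.74 ± 0.36, adjusted p = 0.00115), with mouse 7 inside the 24 h range. The arterial kinase Bmx fell by 1.5 on the log2 scale and the transcription factor Sox17 by 1.07, while the calls of the ephrin Efnb2 (-0.71) and the VEGF co-receptor Nrp1 (-0.78) were lost without mouse 8 (adjusted p = 0.11 and 0.0707), that of Nrp1 also without 4 other mice. Without mouse 8 the list had 3 falls and 1 rise.

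Angiogenic tip cell genes rose in a subset of mice. Of 16 tested 7 rose and 1 fell (median 1.05). Pdgfb, the growth factor that recruits mural cells, read 8.46, 7.29, 8.23 and 8.72 at 48 h and 7.03, 6.52, 6.14, 5.79 and 6.02 at 24 h without overlap (difference 1.87 ± 0.28, adjusted p = 0.000116). Esm1, the tip cell proteoglycan endocan, read 10.25, 4.0, 3.06 and 10.32 at 48 h and 2.62 to 3.32 at 24 h (difference 4.0 ± 1.24, adjusted p = 0.0171). Mice 6 and 9 were at the top and mice 7 and 8 near the 24 h arrays, and its call was lost without mouse 6 (0.12) or mouse 9 (0.123). Igfbp3 split in the same way (8.67, 2.86, 3.12 and 9.27, difference 3.34, adjusted p = 0.0929 without mouse 6 and 0.109 without mouse 9), and Angpt2, the antagonistic ligand of Tek, read 9.84, 6.0, 4.47 and 9.93 against 5.27 to 5.73 (difference 2.07 ± 0.80, adjusted p = 0.0524, not called). Apln, the apelin ligand, rose by 1.58, with 5.38, 3.15, 5.11 and 5.04 at 48 h against 2.96 to 3.33. Leaving out mouse 6 or mouse 9 left 3 rises, while the list had 10 without mouse 7.

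Among adhesion and inflammation genes, 4 of 16 rose and 1 fell, with a median of 0.01. This share of calls was near that of all genes tested (26.5%). Edn1, the vasoconstrictor endothelin-1, read 11.03, 10.80, 11.91 and 11.35 at 48 h and 10.28, 9.91, 9.71, 10.14 and 9.74 at 24 h without overlap (difference 1.32 ± 0.24, adjusted p = 0.000497). The chemokine Cxcl12 rose by 1.61 ± 0.31 without overlap (adjusted p = 0.000719) and Sele, the leukocyte-binding E-selectin, by 2.33 ± 0.62 (adjusted p = 0.0061). Ccl2, which attracts monocytes, read 6.14, 4.43, 8.97 and 5.44 at 48 h (difference 1.79), and its call was lost without mouse 8 (adjusted p = 0.176). The colony-stimulating factor Csf1 fell by 0.92 on the log2 scale. The adhesion molecules Vcam1, with a difference of -0.25 ± 0.28 (adjusted p = 0.552), and Icam1, with -0.16 ± 0.13 (adjusted p = 0.399), did not pass the test, nor did the P-selectin gene Selp, with -0.06 ± 0.15 (adjusted p = 0.803).

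Matrix genes and the proteases that act on them were called about as often as all genes tested (26.5%). Of 25 tested extracellular matrix genes 6 rose and 1 fell (median 0.27), and of 18 proteases and inhibitors 4 rose and 1 fell (median 0.92). The basement membrane collagen Col4a1 read 11.07, 10.63, 10.63 and 11.18 at 48 h and 9.67 to 10.34 at 24 h without overlap (difference 0.84 ± 0.20, adjusted p = 0.00356). Its partner Col4a2 rose by 1.20, though not without 24 h mouse 6 (adjusted p = 0.0539) or 48 h mice 6 (0.0731) or 9 (0.0947). The urokinase receptor Plaur rose by 1.88 and the aggrecanase Adamts4 by 3.28, while the metalloproteinase inhibitor Timp2 was lower by -0.90, a call lost without mouse 6 (adjusted p = 0.126) or mouse 9 (0.106). Matrix rises numbered 1 without 24 h mouse 6 or 48 h mouse 6, 2 without 48 h mouse 9 and 3 without 24 h mouse 8, and protease rises 8 without 48 h mouse 7. Of 17 BMP and TGF-beta targets 3 rose and 1 fell (median 0.16), again near the share of all genes tested, and 5 rose without 48 h mouse 7. Tgfbi (2.44), the latent TGF-beta binding protein Ltbp2 (2.09) and Skil (0.86) rose, Skil not without mouse 8 (adjusted p = 0.15), and the receptor Tgfbr2 fell by 0.91 on the log2 scale. The smooth muscle actin Acta2 read 11.62, 10.47, 11.74 and 11.50 at 48 h and 8.48 to 9.91 at 24 h (difference 2.00 ± 0.48, adjusted p = 0.00331). It was the only rise among 9 tested smooth muscle genes, whose median was -0.42, and Synpo2 was lower by -0.89 (adjusted p = 0.0381). The Synpo2 difference was -0.48 without 48 h mouse 9 (adjusted p = 0.287), and its call was also lost without 48 h mouse 6 (0.151) or 24 h mice 6 (0.0582), 8 (0.0714) or 10 (0.0857).

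Metabolic and stress genes were mixed. Of 17 glycolysis and hypoxia genes 7 rose and 1 fell (median 0.85), among them the glucose transporter Slc2a1 (1.42 ± 0.35, adjusted p = 0.00414) and the glycolytic kinase Pgk1 (1.43 ± 0.31, adjusted p = 0.00149), while Bnip3, which acts in mitophagy, fell by 1.0 on the log2 scale. There were 2 rises without mouse 6 or mouse 9 and 4 without mouse 8. Of 15 ATF4 targets 6 rose and 3 fell (median 0.48), with 2 rises without mouse 6 or mouse 9. The asparagine synthetase Asns read 8.0, 4.40, 5.93 and 7.82 at 48 h against 3.28 to 5.04 (difference 2.48), a call lost without mouse 6 (adjusted p = 0.0585) or mouse 9 (0.0545). Atf4 itself rose by 1.26 ± 0.31 (adjusted p = 0.00347), and the pseudokinase Trib3 fell by 1.16 on the log2 scale. Of 16 unfolded protein response genes 4 rose (median 0.38), Manf by 1.13 and Pdia6 by 0.68, and there were 0 calls without mouse 6 or mouse 9 and 8 without mouse 7. Of 18 respiratory chain genes 3 rose and 1 fell (median 0.26), with 0 rises without 48 h mouse 6 or 9 or 24 h mouse 8, 1 without 24 h mouse 10 and 5 without 48 h mouse 8. The unfolded protein response and respiratory chain genes were called no more often than all genes tested (26.5%).

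Sterol genes, the direct targets of the drug class, did not move together. Of 15 tested cholesterol synthesis and uptake genes 1 rose and 3 fell, with a median of 0.23. This share of calls was about that of all genes tested (26.5%). Sqle, squalene epoxidase, read 5.61, 3.58, 4.21 and 5.87 at 48 h and 2.90, 3.39, 4.02, 3.07 and 3.66 at 24 h (difference 1.41 ± 0.42, adjusted p = 0.0131), and its call was lost without mouse 6 (0.0769) or mouse 9 (0.0937). Insig1, the sterol-sensing brake on this pathway, read 8.49, 8.98, 8.34 and 8.23 at 48 h and 9.11 to 9.59 at 24 h without overlap (difference -0.81 ± 0.20, adjusted p = 0.00382). Insig2 (-0.86) and lanosterol synthase Lss (-1.09) fell without overlap. With 1 weight per group those 3 falls were called and Sqle was not (adjusted p = 0.0593), and without mouse 7 there were 4 rises and 4 falls.

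Clock genes and growth arrest genes gave more falls than rises. Of 14 circadian clock genes 7 fell and 2 rose (median -0.73). Tef, a transcription factor of clock output, read 6.96, 9.37, 7.71 and 7.48 at 48 h and 10.01, 9.83, 9.85, 9.51 and 9.65 at 24 h without overlap (difference -1.89 ± 0.33, adjusted p = 0.000404). Dbp, of the same family, read 4.13, 8.93, 5.55 and 5.45 at 48 h and 7.99 to 9.61 at 24 h (difference -2.60), with mouse 7 inside the 24 h range. The core gene Per2 was lower by -1.77, while the core genes Clock (0.87) and Arntl (0.68), named after their values were seen as the 2 rises of the list, rose. The sources used here do not give the hour of collection. In the unligated RCA of the same mice 0 of the 14 were called (median 0.25), with Dbp at 1.01 ± 0.36 (adjusted p = 0.376). Relative to the RCA 7 were lower in the LCA and 2 higher (median -1.04), among them Dbp (-3.61 ± 0.71, adjusted p = 0.000693), Hlf (-1.83), Per2 (-1.94) and Cry2 (-1.62). In the LCA there were 4 falls without mouse 6 or mouse 8, 0 rises without mouse 6 or mouse 9, and 1 rise without 48 h mouse 8 or 24 h mouse 6 or 9. Of 20 growth arrest and stress genes 10 fell and 3 rose (median -0.80). The transcription factor Klf15 read 4.42, 6.76, 4.17 and 4.27 at 48 h and 6.74 to 7.27 at 24 h (difference -2.17 ± 0.44, adjusted p = 0.00105), and Trp53inp1 fell by 1.59 on the log2 scale, whereas Gadd45a, a DNA damage-inducible inhibitor of the cell cycle, rose by 2.12 ± 0.47 without overlap (adjusted p = 0.00173). The 3 rises became 1 without mouse 6 or mouse 8 and 6 without mouse 7.

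Interferon and antigen presentation genes gave little. Of 13 interferon response genes 2 fell, Ifit3 (-1.55) and Ifit2 (-1.03), with 0 calls without 48 h mouse 6 or 9 or 24 h mouse 7, 8 or 10, and 1 without 48 h mouse 8 or 24 h mouse 6. Of 11 antigen presentation genes 0 were called, with a median of 0.50 and H2-Eb1, an MHC class II chain, at 1.21 ± 0.48 (adjusted p = 0.0584). Among fibroblast genes 1 of 9 fell, the actin-severing Gsn (-0.61), with 0 falls without 48 h mouse 6 (adjusted p = 0.0994) or mouse 9 (0.0879), and among 3 adipocyte genes 1 fell, Fabp4. No platelet (4 tested), erythroid (3), lymphatic endothelial (3), Schwann cell (1) or skeletal muscle (1) gene was called.

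**Figure D3:**
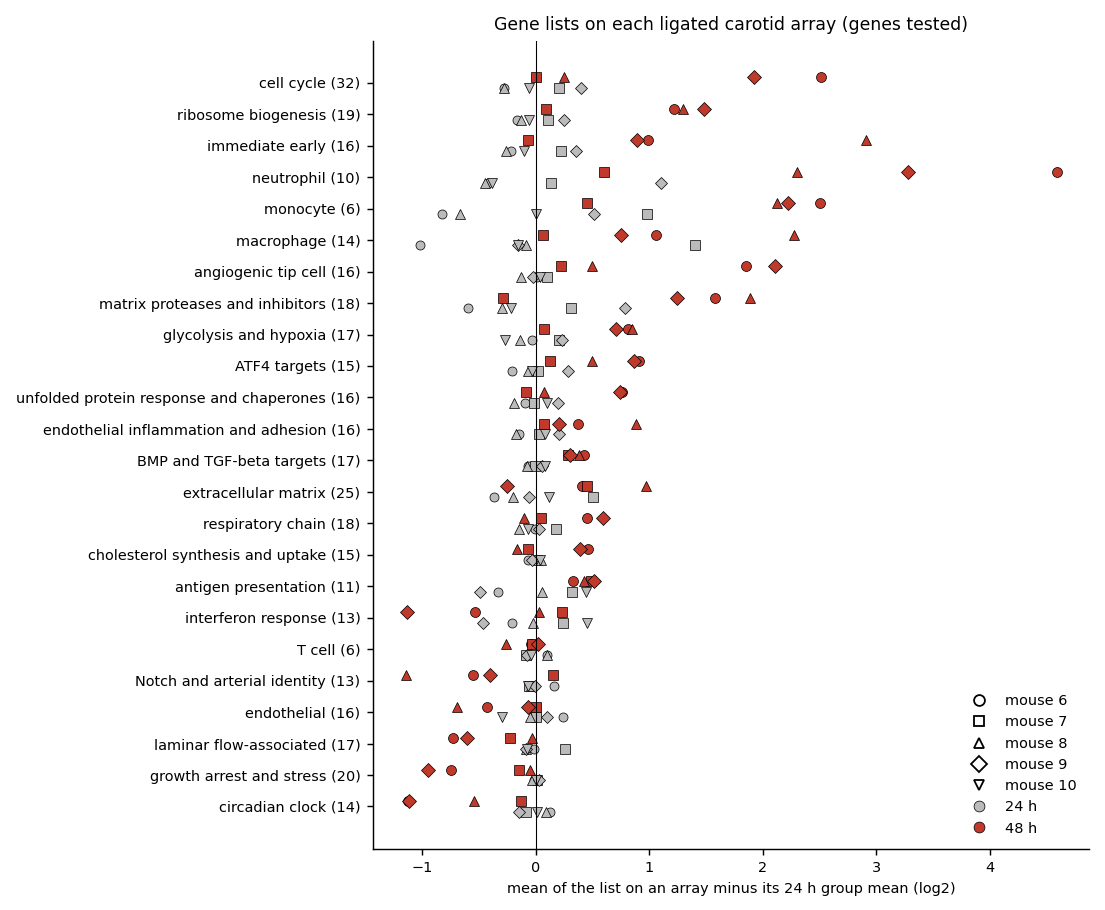
Mean log2 level of 24 gene lists on each atorvastatin-treated LCA array, as the distance from the mean of the 24 h arrays (x axis), with 24 h arrays in grey, 48 h arrays in red, marker shape for the mouse and the number of tested genes in brackets. Mouse 7 at 48 h sits close to the 24 h arrays in most lists, mice 6 and 9 lie farthest out for cell cycle and tip cell genes, and mouse 8 for immediate early and macrophage genes.

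The unligated RCA of the same mice was compared in the same way. Of 11344 genes 1 (0.00882%) was called, Klf2, with 9.44, 9.30, 9.40 and 9.60 at 48 h and 10.54, 9.89, 10.58, 10.84 and 10.40 at 24 h. The groups did not overlap and the difference was -1.02 (adjusted p = 0.00623), beside the -0.81 in the LCA. At an unadjusted p under 0.05 there were 1030 RCA genes (9.08%). No gene was called without 24 h mouse 9 or 48 h mouse 7 (0 each), while 2 were without 24 h mouse 6, 48 h mouse 6 or 48 h mouse 9, 3 without 24 h mouse 10 and 6 without 24 h mouse 8. RCA arrays of 24 h mice 7 and 9 stood apart in immediate early genes, with list means of 8.98 and 8.11 against 6.97 to 7.22 in the other 24 h mice and 6.70 to 7.02 at 48 h.

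The difference in change between the arteries was tested on the LCA minus RCA value of each mouse. Of 11344 genes 2734 (24.1%) changed differently from 24 h to 48 h in the 2 arteries, 1259 (11.1%) upward in the LCA relative to the RCA and 1475 (13%) downward, with 4100 genes (36.1%) at an unadjusted p under 0.05. Of the 3002 genes called in the LCA, 2139 (71.3%) were called here in the same direction, which is 78.2% of the 2734. Leaving out 48 h mouse 6 gave 1583 calls and mouse 9 1482. The largest upward differences were Hbegf (5.18 ± 0.97, adjusted p = 0.000521), Egr2 (4.84), the gap junction gene Gja1 (4.78), the myeloid gene Slfn4 (4.38), Nr4a1 (4.30) and the macrophage lectin Chil3 (4.20). For several of these, Egr2, Gja1 and Nr4a1 among them, part of the difference lay in the RCA. Nr4a1 read 4.22, 3.97, 4.26 and 3.63 in the RCA at 48 h and 5.36, 7.75, 5.63, 8.38 and 5.34 at 24 h, a change of -2.47 (adjusted p = 0.0633). Chil3 changed by -0.86 in the RCA (adjusted p = 0.774). It was not called in the LCA itself (3.34, adjusted p = 0.0588) and only just relative to the RCA (0.0424). The largest downward differences were the flavin monooxygenases Fmo1 (-4.10), Fmo2 (-3.80) and Fmo5 (-3.73), Dbp (-3.61), the sphingosine kinase Sphk2 (-3.52) and Sult1a1 (-3.35). Fmo2 read 4.34, 10.34, 8.83 and 4.77 in the LCA at 48 h and 9.92 to 10.96 at 24 h, while its RCA stayed between 9.05 and 10.25 on all 9 arrays. Fabp4 was lower in the RCA too, at -1.68 (adjusted p = 0.443), and its difference between arteries was not called (-1.19, adjusted p = 0.329), and Klf2 differed by 0.20 (adjusted p = 0.668).

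The same interval in vehicle-treated mice was set beside it. The vehicle LCA (5 arrays at each time) gave 3596 calls (31.7%), 1957 (17.3%) higher and 1639 (14.4%) lower, and 4831 genes (42.6%) at an unadjusted p under 0.05. 2201 genes were called under both treatments, all in the same direction, which is 73.3% of the atorvastatin calls and 61.2% of the vehicle calls. When the 2 changes were tested against each other, 0 of 11344 genes were called (0%), and 295 (2.6%) had an unadjusted p under 0.05. The 95% interval of that difference reached a median of 0.66 log2 units to either side before any adjustment for the number of genes. Il1b rose by 4.32 under vehicle and 4.24 under atorvastatin (difference of changes -0.08, 95% interval -2.53 to 2.37). Klf2 changed by -0.72 under vehicle (difference -0.09, interval -0.92 to 0.74), Nos3 by -0.62 (-0.09, -0.68 to 0.50), Klk10 by -1.93 (0.17, -1.08 to 1.42), Insig1 by -0.73 (-0.08, -0.64 to 0.48) and Sqle by 1.42 (-0.01, -1.18 to 1.16). In the cell cycle list 30 of 32 genes rose under vehicle and 15 under atorvastatin. No member was called for the difference of changes, whose median over the list was -0.61. Mki67 changed by 3.15 under vehicle and 2.15 under atorvastatin (difference -1.0, interval -2.72 to 0.72, adjusted p = 1). The lack of calls does not show that the changes were equal. Antigen presentation had 6 calls of 11 under vehicle and 0 under atorvastatin, again with no member called for the difference. The 4 genes with the smallest p for the difference were Hdac10 (-0.79), Thbs3 (1.58), Hira (-1.56) and Urm1 (1.01), each with adjusted p = 1.

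**Figure D4:**
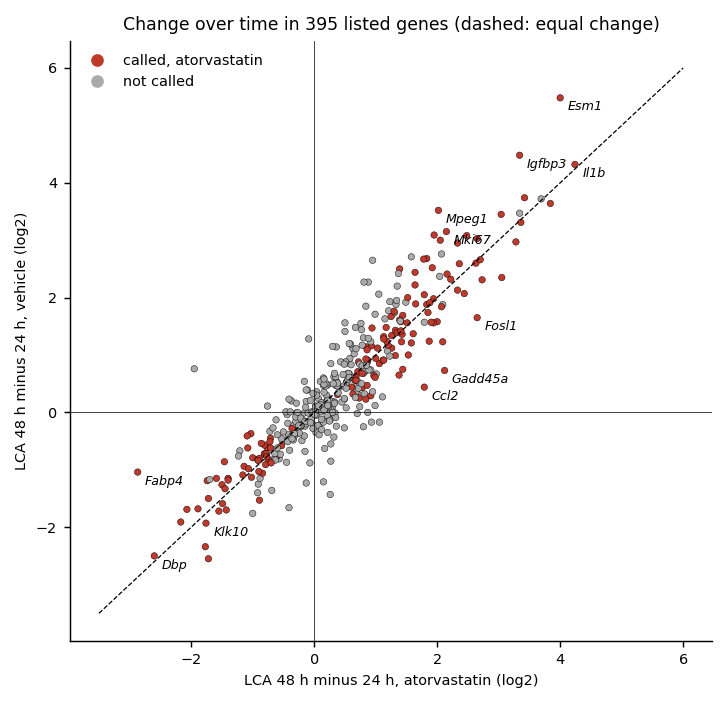
Change from 24 h to 48 h in the LCA (log2 difference) under atorvastatin (x axis) and vehicle (y axis) for the 395 tested genes of all lists, red where called under atorvastatin, with the dashed line marking equal change. Most genes lie along that line, with Fabp4 above it and Gadd45a and Ccl2 below it, and no gene was called for the difference.

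Set among the other times, 48 h was a peak for some genes and a step in a longer course for others. Il1b averaged 5.09 ± 1.63 (SD, n = 5) at 12 h, 4.53 ± 0.99 at 24 h, 8.77 ± 1.75 (n = 4) at 48 h and 6.81 ± 0.58 at 2 weeks in the atorvastatin LCA. Fbl stood at 9.07 ± 0.42, 8.64 ± 0.23, 10.03 ± 0.65 and 9.15 ± 0.10 at those times, highest at 48 h. Klk10 stepped down from 8.87 ± 0.35 to 7.81 ± 0.53, 6.05 ± 0.76 and 4.34 ± 0.35, and Vwc2 from 6.97 ± 0.70 to 6.87 ± 0.50, 3.39 ± 1.18 and 2.34 ± 0.06. Mki67 went from 5.6 ± 0.50 to 6.86 ± 0.92, 9.01 ± 1.80 and 9.82 ± 0.47, so mice 6 and 9 at 48 h lay above the 2 week mean and mice 7 and 8 below it. Dbp read 5.22 ± 0.79 at 12 h, 8.61 ± 0.69 at 24 h, 6.01 ± 2.05 at 48 h and 8.26 ± 0.17 at 2 weeks. These levels at 12 h and 2 weeks are given as descriptions and were not tested against 48 h.

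**Figure D5:**
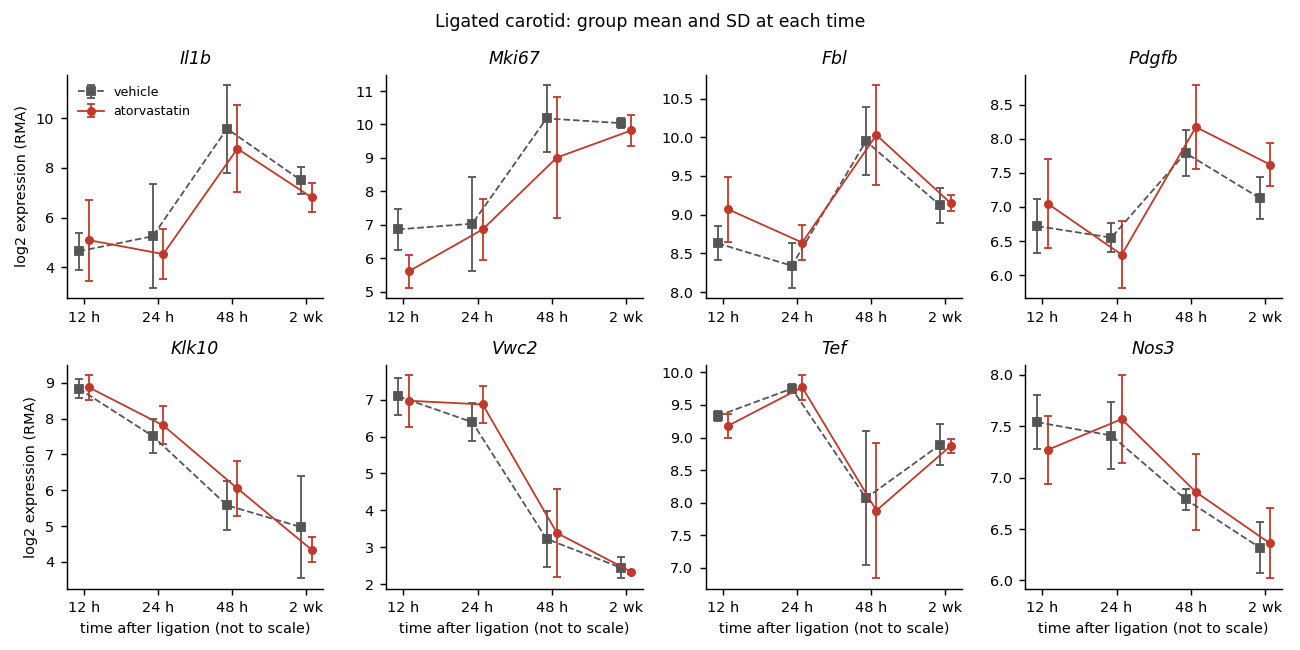
Mean and SD of 8 genes in the LCA at 12 h, 24 h, 48 h and 2 weeks (RMA log2, axis not to scale) under atorvastatin (red circles) and vehicle (grey squares), 5 arrays a group and 4 for atorvastatin at 48 h. Under both treatments the means of Il1b, Fbl and Pdgfb are highest and that of Tef lowest at 48 h, and those of Klk10 and Vwc2 are lowest at 2 weeks.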

How the data were processed

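Affymetrix arrays of endothelial-enriched carotid RNA were analysed for 78 samples of 39 mice. The authors deposited log2 expression values for 45118 probe sets, and the submitters' processing notes name RMA. The sources used here name no RMA software, version or chip definition. RMA gives all arrays a common distribution (array medians 4.59 to 4.77), so a shift shared by all genes is not seen, and the number of arrays limits the precision. Probe sets with 1 gene symbol in the platform annotation (28898) were used, those with several (551) or none (15588) and 81 controls were left out, and the probe set with the highest mean over all arrays stood for each of 17097 genes. Genes above the array median on at least 4 arrays (11344) were tested with limma 3.58.1 in R 4.3.3, fitted on all 39 LCA arrays with 1 mean per group, with Benjamini-Hochberg adjustment at 0.05. The RCA and the LCA minus RCA value of each mouse were fitted alike, and the code was tested on simulated data. P-values of the fits rest on the spread between mice pooled over all 8 groups, and batches could not be modelled. In the LCA the 48 h atorvastatin group had the highest median SD (0.437), so pooling can make its p-values too small.

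Named genes were the 12 largest called rises and falls without overlap, up to 5 called members of each of 33 lists, 6 each way in other comparisons (or the 4 of smallest p), and a few fixed genes. The lists and the comparison were chosen with earlier results of these data known. Alternatives changed the arrays fitted, blocks, scaling, filter, probe set rule and weights, and left out each mouse. Figures used matplotlib 3.10.9.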

Additional observations from a re-analysis of the deposited data

Results flagged for a closer look

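Single arrays stood apart from the rest of their group in 31 of 384 gene or list groups checked by Dixon's gap test, where chance alone marks about 5%. Among the 48 h LCA arrays mouse 7 was the one apart in 12 of them. It was lowest for Plau (7.57, others 9.83 to 10.00), Apln (3.15), Slc7a5 (4.02), Nolc1 (7.82), H2-Eb1 (7.86), Adamts4 (3.94), Mpeg1 (6.53), Lyz2 (10.09), Gja1 (7.74) and Chil3 (5.87), and highest for Klf15 (6.76) and Alas2 (4.56). Mouse 8 was highest for Skil (10.51) and mouse 9 for Flt4 (9.18).

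Among the 24 h LCA arrays, mouse 9 was highest for Il1b (6.26, others 3.84 to 4.42), S100a9 (8.34), Il1r2 (5.72) and Egr2 (8.54) and lowest for Stap1 (3.40). Mouse 7 was highest for Ccr2 (5.53), Hdc (5.58), Edem1 (8.5) and the mean of the laminar flow-associated list (9.23, others 8.89 to 8.96), and lowest for Cp (10.53) and Itga2b (4.55). Mouse 8 was lowest for Gch1 (6.24) and Trib3 (5.71). Mouse 6 was lowest for Lss (3.45) and highest for the mean of the Notch and arterial identity list (9.08, others 8.85 to 8.91). Mouse 10 was highest for Skil (9.26) and lowest for Bnip3 (8.11).

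The change from 24 h to 48 h differed between LCA and RCA by its own test for 2734 genes.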

How the results depend on the processing

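The LCA count of 3002 genes became 6 with only the 9 arrays compared, 5464 with array weights (2934 higher and 2530 lower) and 1718 to 4198 with 1 mouse left out. After seeing the data, 1 weight per group (1422), the 24 h and 48 h groups of both treatments alone (1743) and the fit without 24 h mice 7 and 9 (2725) were added. The other alternatives gave 2563 to 3041, and 4498 with each probe set tested on its own. The RCA count of 1 became 0 (9 arrays alone), 6 (75th percentile filter), 35 (array weights), 43 (group weights), 3 (groups of both treatments) and 0 to 6 with 1 mouse left out. The LCA minus RCA count of 2734 became 1136 (9 mice alone), 4354 (array weights) and 1482 to 3686 with 1 mouse left out. That count was 1877 with group weights and 1927 without 24 h mice 7 and 9, whose RCA arrays stood apart in immediate early genes. The treatment-by-time count was 0 in every alternative run. Same-numbered mice did not deviate together (correlations -0.22, -0.12, -0.06 and 0.09), so the numbers do not pair the samples. A replicate block gave 2669 calls in the LCA, 2 in the RCA and 2418 for LCA minus RCA. The Gapdh end ratio difference of -0.59 was 0.16 for b-actin and -0.70 to -0.50 with 1 mouse left out. Of 138 called named genes 48 lost the call with group weights, 132 with the 9 arrays alone, 59 without 48 h mouse 6, 53 without mouse 9 and 0 without mouse 7, and none changed direction in these fits. Uncalled genes that changed sign were Gp9 (-0.05) and Pmp22 (-0.27) with array weights, Hira (0.07) with the mean of all probe sets, and, with 1 mouse left out, Pmp22 (-0.15 to 0.39, and -0.01 without 24 h mouse 6), Vcam1 (-0.37 to 0.01), Hdac10 (-0.33 to 0.02) and Hira (-0.52 to 0.01). The cause of these shifts was not tested.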
